A study of Mus musculus with 8 samples.

Results

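The 44 genes described here are cyclins, cyclin-dependent kinases, DNA replication factors and mitotic proteins, chosen as a named list and matched by gene identifier, out of 27554 genes in the count table. All 44 were found, and 41 had enough counts to be tested among 11730 genes. The list names genes and uses no measured value, and it was drawn up with earlier results of these data known.

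The cell cycle runs from G1 through DNA synthesis (S phase) and G2 to mitosis. D-type cyclins with Cdk4 and Cdk6, and then E-type cyclins with Cdk2, phosphorylate the retinoblastoma protein Rb1, which frees E2F factors to switch on replication genes. The Mcm2 to Mcm7 helicase is loaded onto origins with the help of Cdc6 and Cdt1, and A- and B-type cyclins with Cdk1 then drive entry into mitosis. Muscle stem cells of resting adult muscle are mostly quiescent and re-enter this cycle after injury, before some of them withdraw again and differentiate.

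The libraries were made from polyadenylated RNA of hindlimb Pax7-positive cells, isolated by fluorescence-activated sorting from C57BL/6NTac mice. All groups carried the same pair of knock-in reporters, Pax7-T2A-ZsGreen and Myf5-T2A-E2Crimson, so Pax7, a transcription factor specific to muscle stem cells, reports in green and Myf5, a myogenic determination factor, in far red. Myf5High and Myf5Low denote the cells with the strongest and the weakest E2Crimson signal, although the libraries' descriptions call them positive and negative. The 4 groups were female Myf5High, female Myf5Low, male Myf5High and male Myf5Low, with 2 libraries each and 4 pooled mice behind each library. The age of the mice was not given in the labels, and they name no treatment and no other allele. The pool labels pair each Myf5High with a Myf5Low library, written below as female pool 1, female pool 2, male pool 1 and male pool 2.

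Each library held 3140361 to 4238427 counts in genes, so that 3 counts, taken as the limit of detection, correspond to 0.672 to 0.986 CPM (read counts scaled to a common library size). Replicates of each group differed by more than sampling noise, at 8.42 to 25.8 chi-square units per degree of freedom. Pax7 was at 1001 to 1498 CPM in all 8 libraries. The Myf5 transcript was at 39.5 to 128 CPM in Myf5High and 25 to 49.9 CPM in Myf5Low. Myogenin (Myog), a marker of differentiating myoblasts, was at 93.7 to 533 CPM in Myf5Low and at most 1.27 CPM in Myf5High. Markers of other cells were also present: endothelial markers summed to 336 to 1099 CPM, fibro-adipogenic markers to 1062 to 2473 CPM and immune markers to 24.0 to 220 CPM. Of the defining immune markers, Cd79a, of B cells, had 0 counts. Genes on the opposite strand overlap Ccnd1, Ccnd3, Cdk4, Ccne2, Cdk2, Rb1, Mcm7, Ccna2, Cdc20, Ube2c and Nusap1, whose counts are uncertain to that extent because no strand setting was stated.

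To show what distinguishes the promoters of replication and mitosis genes, 3 short motifs were searched on both strands in the 250 bases upstream of each RefSeq gene start (GRCm38.p6). They were the E2F site (TTTGGCGC or TTTCGCGC or TTTCCCGC or TTTGCCGC), the cell cycle homology region or CHR (TTTGAA), and the CCAAT box (CCAAT), which do not overlap one another in the sequences printed. Promoters were listed for 35 of the 44 genes. The CHR letters occurred in 8 of 18 promoters of mitosis genes, in 1 of 17 promoters of G1 and replication genes, that of Mcm2, and in 16.3% of 27025 promoters overall. CCAAT occurred in 16 of 18 and 9 of 17 of these promoters, and in 34.5% overall. The E2F letters had the opposite distribution. They occurred in 5 of 17 G1 and replication promoters, of which 4 belong to the licensing factors Cdc6, Mcm5, Mcm6 and Mcm7, in 1 of 18 mitosis promoters, that of Cdk1, and in 1.91% overall. A match describes letters in a window and is not evidence of a bound site.

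The 150 bases before the start are printed for 4 of the mitosis genes that differed between pools (Top2a, Ube2c and Cdc20, which carry the CHR letters, and Plk1, which does not) and for Cdk2, the single gene of the list called between the sexes. They lie at chr11:99024190-99024339 (minus strand), chr2:164769779-164769928 (plus), chr4:118437344-118437493 (minus), chr7:122159285-122159434 (plus) and chr10:128705052-128705201 (minus), all on GRCm38.p6, and are written in the direction of transcription. Capitals mark the motifs on either strand: CCAAT and its reverse complement ATTGG for the box, TTTGAA with its reverse complement TTCAAA for the CHR, and in Cdk2 the letters GCGGGAAA, the E2F site TTTCCCGC read on the opposite strand.
Top2a: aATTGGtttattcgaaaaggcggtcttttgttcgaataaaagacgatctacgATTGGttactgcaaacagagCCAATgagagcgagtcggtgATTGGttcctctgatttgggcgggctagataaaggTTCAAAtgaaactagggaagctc
Ube2c: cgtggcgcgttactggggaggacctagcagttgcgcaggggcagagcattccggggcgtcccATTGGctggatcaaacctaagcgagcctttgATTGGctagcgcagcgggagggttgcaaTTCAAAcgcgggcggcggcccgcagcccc
Cdc20: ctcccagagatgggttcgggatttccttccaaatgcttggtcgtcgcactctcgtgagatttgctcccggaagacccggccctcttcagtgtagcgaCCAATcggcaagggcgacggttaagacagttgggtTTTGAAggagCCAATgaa
Plk1: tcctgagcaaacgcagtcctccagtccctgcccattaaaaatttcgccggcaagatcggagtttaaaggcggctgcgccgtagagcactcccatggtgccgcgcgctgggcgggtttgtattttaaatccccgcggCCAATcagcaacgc
Cdk2: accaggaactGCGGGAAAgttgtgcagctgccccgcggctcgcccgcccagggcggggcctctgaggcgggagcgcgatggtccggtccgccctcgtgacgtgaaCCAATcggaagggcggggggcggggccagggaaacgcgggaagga
The Top2a window holds 4 CCAAT boxes and 1 CHR, the Ube2c and Cdc20 windows 2 and 1 each, the Plk1 window 1 CCAAT box and no CHR, and the Cdk2 window 1 CCAAT box, 1 E2F site and no CHR. Of the 12 mitosis genes described below as higher in male pool 1, promoters were listed for 10, of which 4 held the CHR letters and 9 CCAAT.

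Levels were first compared between the genes, as CPM per kilobase of exon. Of the 44, 3 G1 genes had the highest medians. Cyclin D1 (Ccnd1) had a median of 81.6 CPM per kb over the 8 libraries (range 50.3 to 125) and cyclin D3 (Ccnd3) 60.7 (52.6 to 75.8), and their ranges overlapped. Their partner kinase Cdk4 followed at 20.96 (18.7 to 28.4), below both in every library. By contrast the E-type cyclins, which act later in G1, were low: Ccne2 at 0.820 (0 to 1.73) and Ccne1 at 0.491 (0.0842 to 1.43).

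Among the replication genes Mcm7 (9.23; 4.16 to 12.2), Mcm3 (8.66; 5.34 to 14.4) and the sliding clamp Pcna (7.79; 3.66 to 10.4) were the highest per kb, and their ranges overlapped one another. Mcm2, a subunit of the same helicase as Mcm3 and Mcm7, had a median of 0.600 CPM per kb (0.236 to 3.04). Among the mitosis genes topoisomerase II alpha (Top2a), which untangles sister chromosomes, was highest at 11.4 (3.79 to 24.95), followed by survivin (Birc5) at 6.44 (1.45 to 20.7) and by Cdc20 and Plk1 at 3.96 and 3.94. The lowest of the 44 were Cdc6 (0.309), the ribonucleotide reductase subunit Rrm2 (0.247) and the mitotic kinase Aurkb (0.0408).

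**Figure D1:**
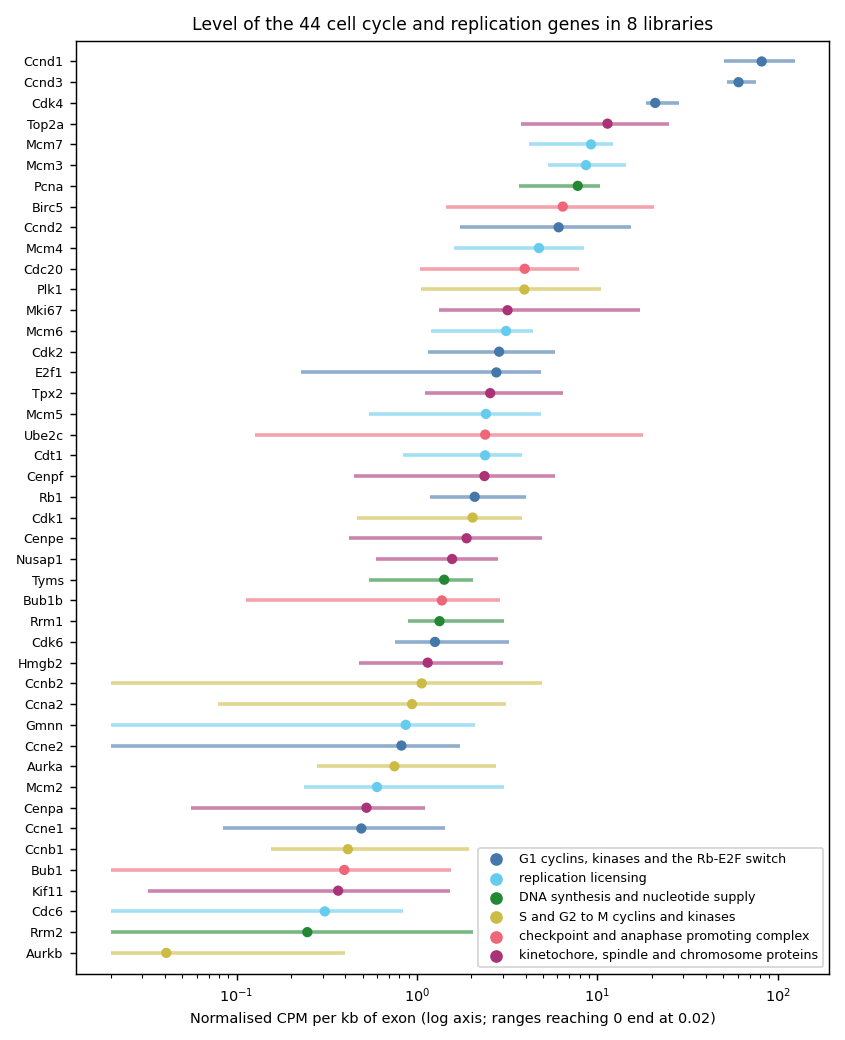
Level of each of the 44 genes in normalised CPM per kb of exon on a log axis; points are medians and lines the range over 8 libraries, coloured by role. Cyclins D1 and D3 and Cdk4 stand at the top, and ranges are widest among the mitosis genes and those with few counts.

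The 3 genes that did not reach the count filter were Ccne1, Cdc6 and Aurkb. Ccne1 had 3 and 15 counts in female Myf5High, 6 and 7 in female Myf5Low, and in males 3 and 6 in Myf5High against 1 and 4 in Myf5Low. The origin loader Cdc6 had 4 and 8, 16 and 4, 0 and 4, and 9 and 8 counts in the same order of groups. Aurkb, the chromosomal passenger kinase, had 0 and 2, 0 and 5, 1 and 0, and 3 and 0. At this depth no difference between groups could be read from these 3 genes.

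Myf5High was compared with Myf5Low over both sexes to find which cell cycle genes differ between the ends of the Myf5 reporter range. None of the 41 tested genes was called at an adjusted p under 0.05 by the quasi-likelihood test of edgeR (Benjamini-Hochberg, over all genes), where 1.2% of all genes were. DESeq2 also called 0, and 5 of the 41 (12.2%) had an unadjusted edgeR p under 0.05, beside 9.36% of all genes. Log2 fold changes were negative, that is lower in Myf5High, for 36 of 41 genes, beside 51.9% of all genes tested, and their median was -0.56 beside -0.02. In bulk RNA of sorted cells, fewer cycling cells and less RNA per cycling cell cannot be told apart.

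The median rested in part on 1 library: without male Myf5Low pool 1 it was -0.19, with 24 of 41 negative. Markers of other cells also differed in balance between the fractions. Negative log2 fold changes were found for 9 of 10 tested endothelial markers (median -0.42), 6 of 10 immune markers (median -1.13, with C1qa called lower in Myf5High by edgeR), 6 of 7 glial markers (median -0.76) and 11 of 12 genes of myogenic commitment (median -1.27, with Myog and Mymk called lower). The median of the commitment genes was -3.19 in females and 0.095 in males, where 5 of 12 were negative, and Myog and Mymk were called lower in each sex. For immediate early genes 1 of 19 was negative (median 0.37). Fibro-adipogenic markers were negative for 3 of 9 (median 0.26, with Dpt called higher) and muscle stem cell markers for 4 of 10 (median 0.16, with Calcr, Chrdl2 and Myf5 called higher). Myf5 carries the reporter on which the fractions were sorted, so its call is not independent of the sort. Of 9 mural markers 6 were negative (median -0.40), with 1 called higher and 1 lower. Tendon markers were negative for 3 of 5 and erythroid markers for 4 of 5 (medians -0.084 and -0.081). The part of these lists in the difference of the cell cycle genes was not tested.

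**Figure D2:**
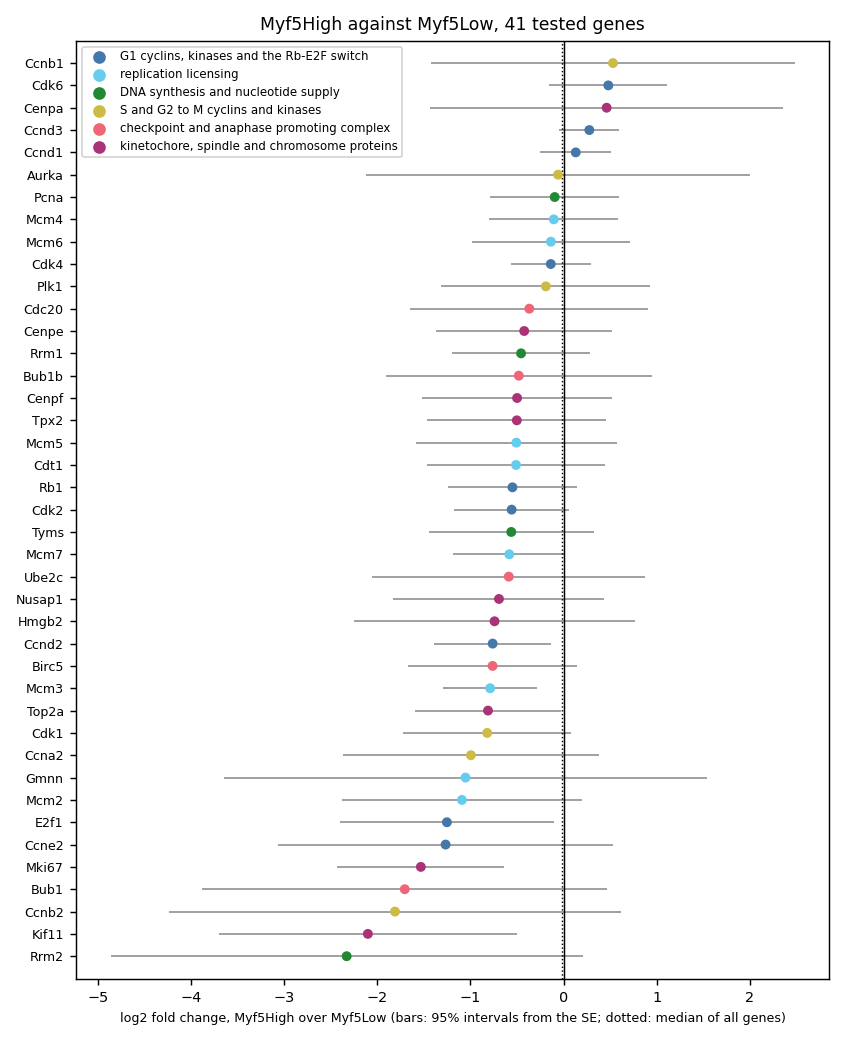
Log2 fold change (edgeR) of each of the 41 tested genes, Myf5High over Myf5Low, over both sexes. Bars are approximate 95% intervals, from the SE and a normal distribution. Colours are roles, and the dotted line is the median of all genes. The bars are somewhat narrower than the test implies. That of Top2a ends at -0.031, below 0, while its unadjusted edgeR p was 0.0564. The estimates lie below 0 for 36 genes, and most bars cross 0.

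Among the G1 genes, 0 of 9 were called and 6 had negative log2 fold changes (median -0.55). Cyclin D3, at 612 and 665 CPM in female Myf5High, 527 and 462 in female Myf5Low, and in males 581 and 539 in Myf5High against 488 and 498 in Myf5Low, was the only one of the 41 genes with all Myf5High libraries above all Myf5Low libraries. This pattern occurred in 2.36% of all genes, and its log2 fold change of 0.28, with an SE of 0.165, had an edgeR adjusted p of 0.692. Ccnd3 was also the only gene higher in Myf5High in 4 of 4 pools, as were 7.51% of all genes. Its paralogue Ccnd2 had 44.3 and 60.1 CPM in female Myf5High and 51.6 and 54.8 in female Myf5Low, and 16.3 and 64.4 in male Myf5High against 81.3 and 145 in male Myf5Low. The female libraries of Ccnd2 overlapped and the male ones did not, on 2 libraries per fraction and with no share over all genes given. The estimate over both sexes was -0.76 (log2, SE 0.319, edgeR adjusted p 0.42). Without male Myf5High pool 2 it was -1.41 and called (edgeR adjusted p 0.00824), and without male Myf5High pool 1 it was -0.42.

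E2f1, the activator that turns on replication genes, was low in every library. It had 3.88 and 6.11 CPM in female Myf5High against 8.52 and 15.3 in Myf5Low, and 0.720 and 8.88 in male Myf5High against 10.5 and 11.9. It was lower in Myf5High within each of the 4 pools, and 1 male Myf5High library overlapped the Myf5Low range (log2 fold change -1.25, SE 0.587; edgeR adjusted p 0.522). That library was male Myf5High pool 2, without which the estimate, on 3 remaining counts, was -2.57 and called (edgeR adjusted p 0.0395), and without male Myf5High pool 1 it was -0.79. Cdk6, an early G1 kinase, had the second highest log2 fold change of the 41 at 0.48 (SE 0.323; edgeR adjusted p 0.756; 0.23 without female Myf5High pool 1), with libraries that overlapped. The other 5 tested G1 genes, all with overlapping fractions, ranged from -1.27 for Ccne2 through -0.56 for Cdk2, -0.55 for the E2F restrainer Rb1 and -0.14 for Cdk4 to 0.13 for Ccnd1.

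In the replication licensing group, 0 of 8 genes were called and all 8 log2 fold changes were negative (median -0.55). Mcm3, a helicase subunit (ENSMUSG00000041859, chromosome 1, 20802968 to 20820312, GRCm38), had 20.1 and 27.0 CPM in female Myf5High and 54.1 and 35.05 in female Myf5Low, and 25.5 and 29.9 in male Myf5High against 50.2 and 37.3 in male Myf5Low. It was the only one of the 41 genes with every Myf5High library below every Myf5Low library, as were 2.22% of all genes. The log2 fold change of -0.79 had an SE of 0.258 and an edgeR adjusted p of 0.221. Mcm7 was lower in Myf5High in 4 of 4 pools with overlapping libraries, at 19.1, 39.7, 42.0 and 18.4 CPM against 49.996, 53.9, 49.5 and 28.2 (log2 fold change -0.58, SE 0.307; edgeR adjusted p 0.604; -0.94 to -0.35 over fits without 1 library). The subunits of the helicase were not uniform, since Mcm4 and Mcm6 had log2 fold changes of -0.11 (SE 0.354) and -0.14 (SE 0.434), while Mcm5 and Mcm2 were at -0.51 (SE 0.552) and -1.09 (SE 0.658). The loader Cdt1 and its inhibitor geminin (Gmnn) were at -0.51 (SE 0.486) and -1.05 (SE 1.32). Mcm7 shares its span with Cops6 and Ap4m1 on the opposite strand, which had 1460 and 1132 counts against 1196.

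For DNA synthesis and nucleotide supply, 0 of 4 genes were called and all 4 log2 fold changes were negative. Rrm2, which makes deoxyribonucleotides in S phase, had the most negative log2 fold change of the 41, at -2.33 (SE 1.29; edgeR adjusted p 0.642). It rested on few reads: 8 counts over the 4 Myf5High libraries and 51 over the 4 Myf5Low ones, a ratio of 5.48 after scaling (exact 95% interval 2.58 to 13.4, counting error only). The Myf5Low counts were 7 and 24 in females and 20 and 0 in males. The sign turned without male Myf5Low pool 1, where the other male Myf5Low library has 0 counts. The clamp Pcna, with 556 counts in all, had a log2 fold change of -0.10 (SE 0.353), and Rrm1 and Tyms were at -0.46 and -0.56. Their libraries overlapped.

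The 20 tested mitosis genes comprised cyclins and kinases of S phase to mitosis (6), checkpoint and anaphase-promoting genes (5) and kinetochore, spindle and chromosome genes (9). None of the 20 was called by edgeR or DESeq2, 2 had an unadjusted edgeR p under 0.05, and 18 log2 fold changes were negative (median -0.64). The proliferation marker Mki67 (ENSMUSG00000031004, chromosome 7, 135689784 to 135716361, GRCm38) had the lowest p of the 41. It was at 13.3 and 35.9 CPM in female Myf5High and 51.4 and 48.9 in female Myf5Low, and at 28.1 and 18.4 in male Myf5High against 175 and 18.9 in male Myf5Low. Each pool had less Mki67 in Myf5High, but in male pool 2 the values were 18.4 and 18.9 CPM, and the fractions overlapped. The log2 fold change of -1.53 had an SE of 0.457 and an edgeR adjusted p of 0.153, or 0.134 with the pool as a block. Without male Myf5Low pool 1 it was -0.36, without both libraries of male pool 1 it was -0.52, and without male Myf5Low pool 2 it was -1.958 and called (edgeR adjusted p 0.0027).

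Top2a (ENSMUSG00000020914, chromosome 11, 98992943 to 99024189, GRCm38) showed the same order within pools. Its levels were 38.5 and 111 CPM in female Myf5High against 106 and 122 in Myf5Low, and 99.7 and 34.2 in male Myf5High against 225 and 48.3. The spread between pools of 1 fraction was as wide as the spread between fractions, and the estimate was -0.81 (log2; SE 0.398; edgeR adjusted p 0.556). It was -0.067 without male Myf5Low pool 1 and -1.30 without male Myf5High pool 1. Kif11, the motor that separates spindle poles, had 2.91 and 2.55 CPM against 5.22 and 8.70 in females and 0.240 and 1.64 against 11.4 and 1.91 in males (log2 fold change -2.10, SE 0.817; edgeR adjusted p 0.375). The estimate was -1.20 without male Myf5Low pool 1, -2.99 without male Myf5High pool 2, where 1 count remains in that group, and -0.77 without both libraries of male pool 1. Its Myf5High libraries overlapped the Myf5Low ones only through male Myf5Low pool 2.

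Cyclin B2 (Ccnb2) had an estimate of -1.81 (log2; SE 1.24; edgeR adjusted p 0.764), with 0 and 2 counts in female Myf5High, 10 and 32 in female Myf5Low, and in males 28 and 0 in Myf5High against 21 and 1 in Myf5Low. The estimate was -0.22 without male Myf5Low pool 1. No value is given without male Myf5High pool 1 or female Myf5High pool 2, where the remaining library of the group has 0 counts. The male libraries of Ccnb2 separated by pool and not by fraction. The most positive log2 fold changes of the 41 were those of its paralogue Ccnb1 (0.53, SE 0.998; edgeR adjusted p 0.95), of Cdk6 and of the centromeric histone Cenpa (0.46, SE 0.967; edgeR adjusted p 0.958). Both Ccnb1 and Cenpa turned negative without male Myf5High pool 1, at -0.82 and -1.18, where 2 and 1 counts remain in that group. The remaining 14 mitosis genes ranged from -1.71 (Bub1) to -0.06 (Aurka), with edgeR adjusted p-values of 0.653 to 0.996 and fractions that overlapped.

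Within pools, 13 of 41 genes were lower in Myf5High in 4 of 4 pools, as were 8.76% of all genes. They were Ccne2 and E2f1 of the G1 group, Gmnn, Mcm3 and Mcm7 of the licensing group, and Bub1, Ccna2, Cdc20, Cdk1, Cenpf, Kif11, Mki67 and Top2a of the mitosis groups. The share stood above that of all genes, while the test of single genes found 0, and these genes were counted after the data were seen. Ccna2 and Cdc20 share their spans with Exosc9 and Elovl1 on the opposite strand, which had 1046 and 1679 counts against 202 and 265.

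Other genes of the same pathways were counted for comparison. Of 47 tested other mitosis genes 0 were called by edgeR or DESeq2, 9 had an unadjusted p under 0.05 and 42 were negative, with a median of -0.59. Of 38 other replication genes 0 were called by either tool, 1 had an unadjusted p under 0.05 and 26 were negative (median -0.23), and of 26 other G1 and E2F genes the counts were 0, 2 and 19 (median -0.18). Among 6 tested inhibitors of cyclin-dependent kinases, 1 was called. Cdkn1c (p57), linked with withdrawal from the cycle during muscle differentiation, was at 7.89 to 15.1 CPM in Myf5High and 105 to 588 CPM in Myf5Low and fell in Myf5High (log2 fold change -4.43, SE 0.301; edgeR adjusted p 9.68e-08). Cdkn1a (p21) and Cdkn1b (p27) had log2 fold changes of -0.02 (SE 0.243) and -0.03 (SE 0.238). Their directions differed by sex, at -0.64 in females and 0.61 in males for Cdkn1a and at -0.44 and 0.39 for Cdkn1b, in both pools of each sex, and neither interaction passed (edgeR adjusted p 1.0 for both).

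Within females, 0 of 41 genes were called by edgeR or DESeq2, where edgeR called 0.332% of all genes, and 5 (12.2%) had an unadjusted p under 0.05 beside 7.36% of all genes. Log2 fold changes were negative for 29 genes (median -0.31). Without female Myf5High pool 1 the median was -0.051 and without female Myf5Low pool 2 it was -0.095, with 23 genes negative in each, while without female Myf5High pool 2 it was -0.69 with 34 negative. Ccnd1 had the lowest p: 385 and 582 CPM in Myf5High against 237 and 311 in Myf5Low (log2 fold change 0.82, SE 0.276, edgeR adjusted p 0.363). The estimate was 0.49 without female Myf5High pool 2. The female libraries of Ccnd1 did not overlap between fractions, which was also so for Tyms, Mcm3, Rb1 and other genes of the list. Such separation rests on 2 libraries per fraction, and no share over all genes is given. The largest negative estimates were those of Ccnb2 (-4.08, SE 1.94; edgeR adjusted p 0.674), Rrm2 (-2.66, SE 1.83; 0.852) and the checkpoint kinase Bub1 (-2.07, SE 1.61; 0.893). All 3 rested on few reads. Ccnb2 had 2 counts in Myf5High and 42 in Myf5Low, a ratio of 18.7 (exact 95% interval 4.86 to 159), and Bub1 6 and 30, a ratio of 4.45 (1.82 to 13.1). On the positive side Cenpa and the mitotic kinase Aurka both stood at 0.89 (SE 1.39 and 1.40, edgeR adjusted p 0.953 for both). Over 15 alternatives the estimates ranged from 0.52 to 1.41 for Cenpa and from 0.14 to 1.59 for Aurka.

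Within males, 0 of 41 genes were called by edgeR or DESeq2, where edgeR called 0.171% of all genes, and 4 (9.76%) had an unadjusted p under 0.05 beside 6.67% of all genes. Log2 fold changes were negative for 32 genes, beside 51.2% of all genes (median -0.013). The median of the 41 was -0.69, and it turned to 0.21 without male Myf5Low pool 1 and to -1.48 without male Myf5High pool 1. Ccnd2, with the values given above, had the lowest p (log2 fold change -1.50, SE 0.456; edgeR adjusted p 0.312, or 0.0599 with the pool as a block). Its estimate was -0.81 without male Myf5High pool 1, and without male Myf5High pool 2 it was -2.79 and called (edgeR adjusted p 0.00962). The most negative estimates were those of Kif11 (-2.86, SE 1.21; edgeR adjusted p 0.66; -1.04 without male Myf5Low pool 1, -4.63 without male Myf5High pool 2, on 1 remaining count, and -0.19 without both libraries of male pool 1), Ccne2 (-2.31, SE 1.34; 0.828) and Mki67 (-2.05, SE 0.652; 0.39). Without male Myf5Low pool 1 the sign of Mki67 turned (0.31), without both libraries of male pool 1 it was -0.010, and without male Myf5Low pool 2 it was -2.90 and called (edgeR adjusted p 0.0206). Ccne2 was at 2.16 and 0 CPM in male Myf5High against 6.05 and 5.5 in male Myf5Low. Its estimate was -1.40 without male Myf5High pool 2, and -7.46 without male Myf5High pool 1, where the remaining library has 0 counts and the value is no measure of size. The most positive were Ccnb1 (0.77, SE 1.38), Tyms, which makes thymidylate (0.59, SE 0.628), and Ccnb2 (0.46, SE 1.57), with edgeR adjusted p-values of 0.987 to 1.0.

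The sexes were compared with both fractions together. There were only 2 pools per sex, and the test took the 2 fractions of a pool as separate libraries, without a term for the pool. The fit with the fractions summed per pool, given below, counts each pool once. Of the 41 genes 1 was called by edgeR, and 1.65% of all genes were, so the share of the list was near the background. At an unadjusted p under 0.05 there were 5 of 41 (12.2%) and 13.9% of all genes. The gene was Cdk2, the kinase of the G1 to S transition (ENSMUSG00000025358, chromosome 10, 128697939 to 128705031, GRCm38), whose upstream bases are printed above. It had 25.9 and 29.0 CPM in female Myf5High and 19.0 and 36.5 in female Myf5Low, and 7.20 and 8.22 in male Myf5High against 16.6 and 16.5 in male Myf5Low. Every female library was above every male library, as for 3.59% of all genes. The log2 fold change of Cdk2, female over male, was 1.29 with an SE of 0.316 (edgeR adjusted p 0.0476), and the means were 27.6 ± 7.26 and 12.1 ± 5.11 CPM (SD over 4 libraries from 2 pools in each sex). Pmel, which overlaps Cdk2 on the opposite strand, had 2 counts in all. The call was close to the threshold. DESeq2 also called Cdk2 (adjusted p 0.0165), while summing the fractions of each pool gave an edgeR adjusted p of 0.0832, and 6 of 8 fits without 1 library lost the call (edgeR adjusted p up to 0.274, without female Myf5Low pool 2). The log2 fold change itself was 1.01 to 1.49 over 16 alternatives, lowest without female Myf5Low pool 2.

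Markers of other cells also differed between the sexes. Log2 fold changes, female over male, were negative for 9 of 10 endothelial markers (median -0.75, with Egfl7 and Eng called), whose sums were 336 to 583 CPM in females and 642 to 1099 CPM in males. They were negative for 9 of 9 fibro-adipogenic markers (sums 1062 to 1850 against 1361 to 2473 CPM), for 5 of 5 erythroid markers (950 to 1301 against 868 to 2788 CPM) and for 8 of 12 commitment genes, with Mef2c and Myh3 called. Of immune markers 4 of 10 were negative (median 0.13, with S100a8 and S100a9 called higher in females), and their sums overlapped, at 28.0 to 220 CPM in females and 24.0 to 98.2 CPM in males. Of immediate early genes 6 of 19 were negative (median 0.18, with Btg2, Dusp1 and Nr4a1 called higher in females). Muscle stem cell markers were negative for 1 of 10 (median 0.22), mural markers for 3 of 9 (median 0.43), glial markers for 5 of 7 (median -0.32) and tendon markers for 2 of 5 (median 0.48). In these 4 lists edgeR called 0, DESeq2 called 1, 1, 0 and 0, and 3, 3, 0 and 1 had an unadjusted p under 0.05. The part of these lists in the difference of Cdk2 was not tested.

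**Figure D3:**
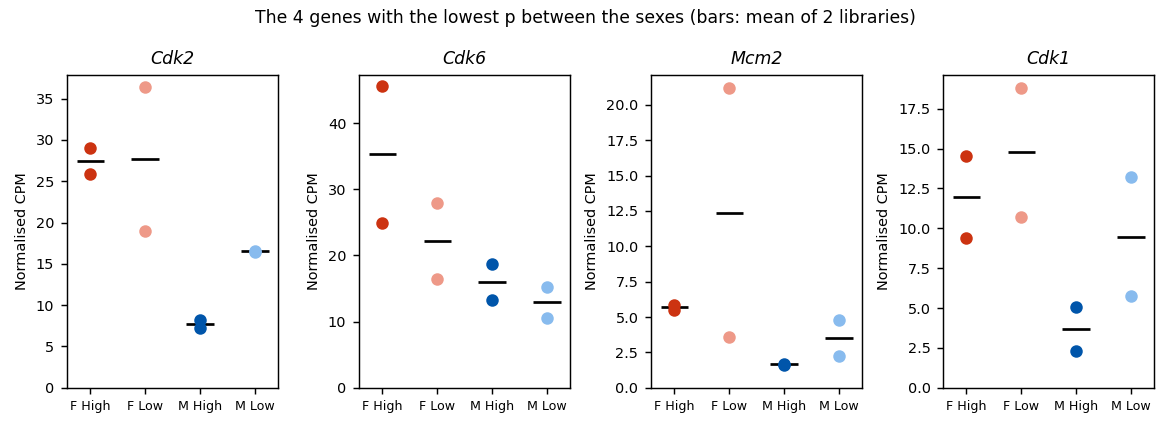
Normalised CPM of Cdk2, Cdk6, Mcm2 and Cdk1, the 4 genes with the lowest p between the sexes, in each library; bars are means of 2 libraries. Cdk2 is the only one of the 4 with no overlap between female and male libraries, and 1 female Myf5Low library stands high for Mcm2, at 21.2 CPM.

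No other gene of the list passed. Cdk6, a partner of the D-type cyclins, had 45.6 and 24.95 CPM in female Myf5High, 16.5 and 28.0 in female Myf5Low, and in males 13.2 and 18.7 in Myf5High against 10.5 and 15.3 in Myf5Low (log2 fold change 0.97, SE 0.324; edgeR adjusted p 0.167). Mcm2 had the largest estimate at 1.78 (SE 0.664; edgeR adjusted p 0.219), with 5.5 and 5.86 CPM in female Myf5High, 3.57 and 21.2 in female Myf5Low, and in males 1.68 and 1.64 in Myf5High against 2.24 and 4.78 in Myf5Low. Its sexes overlapped, and the estimate was 0.89 without female Myf5Low pool 2. The mitotic kinase Cdk1 followed at 1.16 (SE 0.464; edgeR adjusted p 0.26).

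On the male side the most negative estimates, female over male, were those of Ccnb2 (-1.23, SE 1.22; edgeR adjusted p 0.711), cyclin A2 (Ccna2; -1.13, SE 0.702; 0.504) and the ubiquitin-conjugating enzyme Ube2c (-1.05, SE 0.749; 0.575). All 3 turned positive without both libraries of male pool 1, at 0.077 for Ccna2 and at 2.66 for Ube2c, which then has 1 and 14 male counts. Ccnb2 then has 0 and 1, so its fitted value, given with the processing below, is no measure of size. Log2 fold changes were negative for 21 of 41 genes, beside 51.3% of all genes (median -0.015). The median of the 41 was -0.05, and it was 0.81 without male pool 1. In that fit Cdk2 had a log2 fold change of 1.23 and was not called (edgeR adjusted p 0.111), and Cenpf, a kinetochore protein, was.

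The difference between the fractions was tested for a difference between the sexes. The interaction called 0 of 41 genes, and 0 of all genes (0%), by edgeR, and DESeq2 called 0 of the 41. At an unadjusted p under 0.05 there were 3 of 41 and 533 of all genes. Ccnd1 had the lowest p. It was at 385 and 582 against 237 and 311 CPM in females and at 384 and 312 against 589 and 436 CPM in males, so Myf5High was the higher fraction in both female pools and the lower in both male pools. The interaction, the log2 fold change of females less that of males, was 1.38 with an SE of 0.389 (edgeR adjusted p 0.917). The same opposition of all 4 pools held for 5 of 41 genes and for 10.9% of all genes. Among them Tyms, at 3.56 and 3.31 against 10.2 and 12.5 CPM in females and 9.85 and 12.2 against 7.17 and 7.41 CPM in males, had an interaction of -2.30 (SE 0.912; edgeR adjusted p 1.0).

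The most negative interaction was that of Ccnb2 (-4.54, SE 2.49), followed by Tyms and by the chromatin protein Hmgb2 (-1.955, SE 1.54). The most positive were those of Ccne2 (2.09, SE 1.83), Ube2c (1.91, SE 1.497) and Aurka (1.90, SE 1.94). By edgeR the adjusted p of each was 1.0. Hmgb2 had 7 and 6 counts in female Myf5High and 33 and 15 in female Myf5Low, and in males 14 and 16 in Myf5High against 26 and 6 in Myf5Low. Aurka had 4 and 12, 6 and 3, 13 and 4, and 31 and 9 counts in the same order. Over 14 alternatives the interaction ranged from -3.60 to -1.13 for Hmgb2, 0.82 to 2.66 for Aurka and 1.19 to 7.24 for Ccne2. Male Myf5High pool 2 has 0 counts of Ccne2, so its value without male Myf5High pool 1 is no measure of size. The sign turned for Ccnb2 without male Myf5High pool 1, where 0 counts remain in that group, and for Ube2c without male Myf5Low pool 1 (-0.98).

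The summed level of the mitosis genes differed between the male pools in both fractions. Differences between pools were noticed in the data and are described without a test, since each pool is 1 library per fraction. In male pool 1 the summed level of the mitosis genes was 379 CPM in Myf5High and 799 CPM in Myf5Low, and in male pool 2 it was 109 and 154 CPM. The female sums were 149 and 317 CPM in Myf5High and 334 and 368 CPM in Myf5Low. The G1 sums, made up mostly of Ccnd1 and Ccnd3, were 943 to 1461 CPM over the 8 libraries, the licensing sums 86.5 to 180 CPM and the DNA synthesis sums 33.4 to 74.3 CPM. Male pool 1 had the highest mitosis sum of each fraction, and male pool 2 the lowest.

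**Figure D4:**
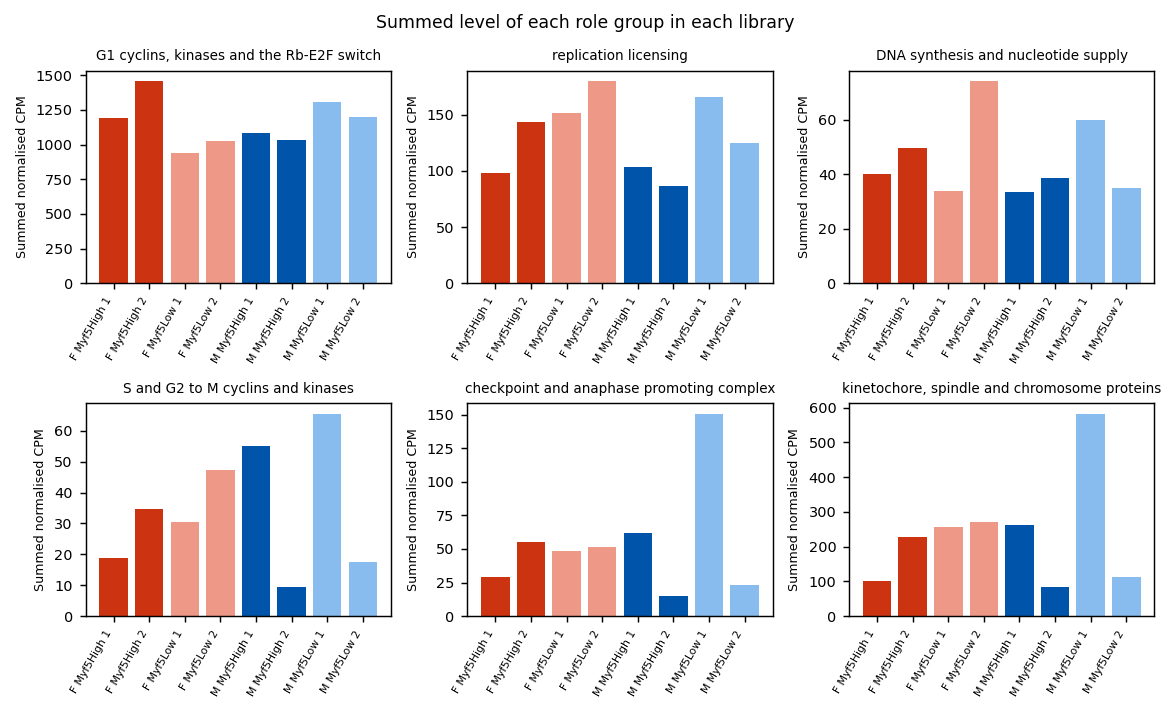
Summed normalised CPM of the genes of each role in each library, from a bar axis starting at 0; red is female, blue male, dark Myf5High and light Myf5Low. In the lower row male pool 1 exceeds male pool 2 in both fractions, while the G1 sums in the upper left panel range from 943 to 1461 CPM.

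Gene by gene, pools were compared after 0.5 CPM was added to each value. On that scale 13 of 41 were at least 2-fold higher in male pool 1 than in male pool 2 in both fractions. The share of all genes was 2.15%, and 0 of the 41 were at least 2-fold lower in both (2.01% of all genes). Of the 13, 12 were among the 20 mitosis genes: Birc5, Bub1, Ccna2, Ccnb1, Ccnb2, Cdc20, Cenpa, Cenpf, Plk1, Top2a, Tpx2 and Ube2c. The remaining gene was the licensing inhibitor Gmnn, with 6 and 0 counts in male Myf5High against 12 and 3 in male Myf5Low, 1 of the 21 G1 and replication genes. In a list of further mitosis genes the same pattern held for 23 of 47, in further replication genes for 3 of 38 and in further G1 and E2F genes for 1 of 26. Several of these values lay under the limit of 3 counts. With such values set to that limit and no 0.5 CPM added, 14 of 41 genes met the 2-fold rule (2.24% of all genes). All of them were mitosis genes. Gmnn was lost. Aurka and Cdk1, with no male value under 3 counts, were gained by leaving out the 0.5 CPM.

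Ube2c, which works with the anaphase-promoting complex to mark mitotic cyclins for destruction, was 1 of the 12. It had 16.3 and 0.329 CPM in male Myf5High against 46.6 and 3.34 CPM in male Myf5Low, against 2.59 and 13.2 in female Myf5High and 6.32 and 6.12 in female Myf5Low. Its male pools did not overlap, and the 0.329 CPM in male Myf5High pool 2 is below the limit of detection. The span of Ube2c overlaps Tnnc2, a troponin gene on the opposite strand, which had 101 and 47.0 CPM in male Myf5High against 49.96 and 66.2 CPM in male Myf5Low and so did not follow the pools in both fractions.

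Cdc20, the activator of the anaphase-promoting complex, had 12.2 and 2.96 CPM in male Myf5High against 14.8 and 3.11 in male Myf5Low. The kinetochore gene Cenpf had 64.6 and 6.90 and then 90.5 and 13.9 CPM, and the kinase Plk1 19.7 and 2.30 and then 23.1 and 4.54 CPM. For these 3 genes the pools of males stood apart in the same direction in both fractions. Birc5, of the chromosomal passenger complex, had 29.8 and 4.93 CPM in male Myf5High against 70.6 and 13.6 in male Myf5Low. The spindle assembly factor Tpx2 had 15.1 and 7.23 and then 30.0 and 6.45 CPM.

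Not all mitosis genes followed. In male Myf5Low 19 of the 20 were at least 2-fold higher in pool 1, where 8.02% of all genes were, and the exception was the kinesin Cenpe, at 27.8 and 17.7 CPM. In male Myf5High 13 of 20 were, where 15.1% of all genes were, and Bub1b, Kif11 and Nusap1 were at least 2-fold lower there (13.1% of all genes). These counts also rest on CPM + 0.5. In male Myf5High Aurka, at 3.12 and 1.32 CPM, and Cdk1, at 5.04 and 2.30 CPM, passed 2-fold only before that addition. The checkpoint kinase Bub1b had 0.480 and 6.90 CPM in male Myf5High against 12.3 and 2.15 in male Myf5Low. Mki67 was at 28.1 and 18.4 CPM in male Myf5High, a smaller gap than its 175 and 18.9 CPM in male Myf5Low.

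The female pools, whose numbers bear no relation to those of the male pools, were described in the same way. In both fractions 4 of 41 genes (Ccna2, Ccnb2, Cdc20 and Gmnn) were at least 2-fold higher in female pool 2, as were 2.19% of all genes, and 0 were at least 2-fold higher in female pool 1 (1.57%). In female Myf5High pool 1 Ccna2, Ccnb2 and Gmnn had 1, 0 and 0 counts. With values under 3 counts set to that limit, 3 of 41 remained (1.95% of all genes), and Ccnb2, with 2 counts in female Myf5High pool 2, was lost. In any size, 20 of 41 were higher in female pool 2 in both fractions (25% of all genes), of which 14 were G1 and replication genes, and 23 of 41 were higher in male pool 1 in both fractions (23.7% of all genes), of which 7 were. Ccna2, the cyclin of S phase and G2, had 0.323 and 3.31 CPM in female Myf5High and 3.85 and 9.88 CPM in female Myf5Low.

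**Figure D5:**
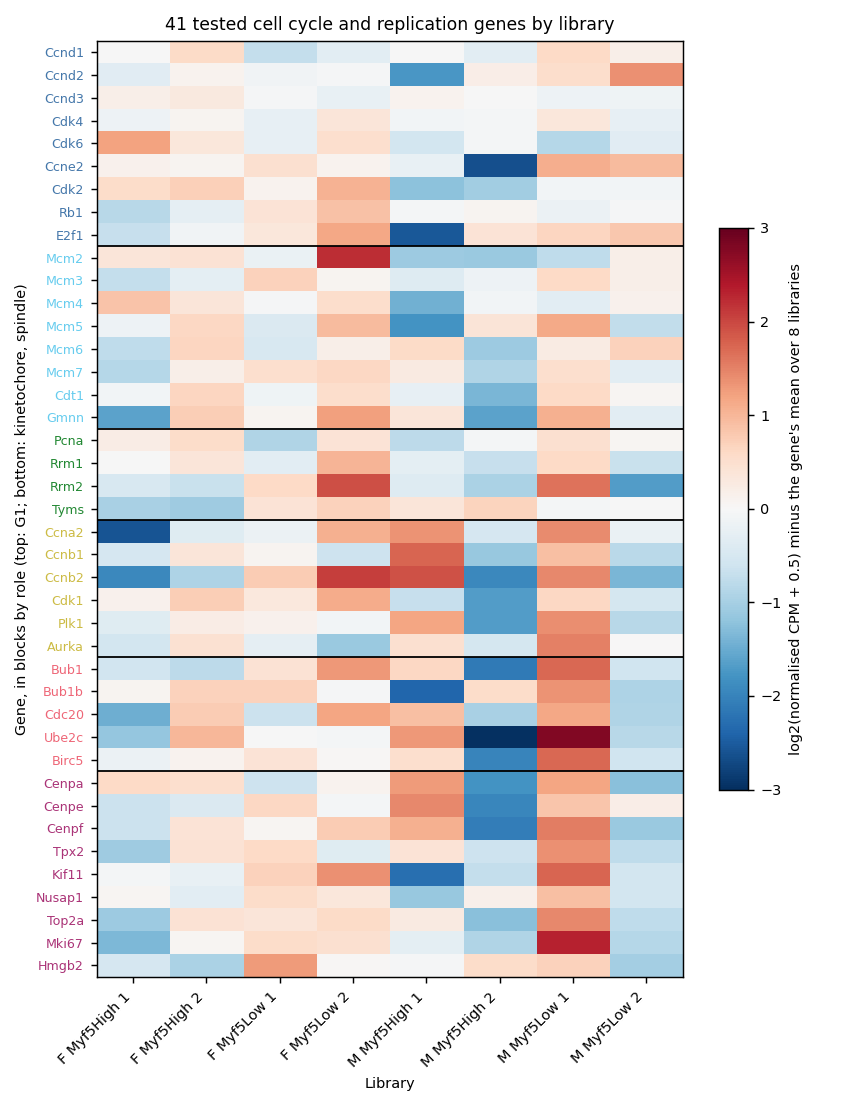
Level of the 41 tested genes in each library as log2(normalised CPM + 0.5) minus the mean of the gene over 8 libraries, in blocks by role from G1 (top) to kinetochore and spindle (bottom); the colour scale ends at 3 in each direction. The lower blocks are mostly red in both libraries of male pool 1 and blue in both of male pool 2.

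Summed levels of marker lists were set beside the male pools. In this paragraph male pool 1 is given before male pool 2. The 5 erythroid markers summed to 1062 and 2323 CPM in Myf5High and to 868 and 2788 CPM in Myf5Low, beside 950 to 1301 CPM in females. The transcript Gm42418 was also lower in pool 1, at 24.8% and 28.8% of gene counts in Myf5High and 20.7% and 25.5% in Myf5Low. Immune markers were also lower in pool 1 in both fractions, at 24.0 and 59.5 CPM in Myf5High and 56.7 and 98.2 CPM in Myf5Low, as were endothelial markers at 670 and 752 CPM and at 642 and 1099 CPM. Glial markers were at 204 and 209 CPM and at 163 and 252 CPM. Higher in pool 1 in both fractions were muscle stem cell markers (3965 and 3212 CPM, then 3852 and 3440), fibro-adipogenic markers (2473 and 1955 CPM, then 1616 and 1361) and tendon markers (42.0 and 14.5 CPM, then 30.0 and 22.2).

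Other measures ran in opposite orders in the fractions. Mitochondrial genes took 2.82% and 0.694% of counts in male Myf5High against 1.06% and 1.76% in male Myf5Low. Myogenic commitment markers summed to 1472 and 279 CPM in male Myf5High against 503 and 1104 CPM in male Myf5Low. For mural markers the sums were 1751 and 1561 CPM and then 1003 and 1504 CPM. Immediate early genes, which respond to dissociation, summed to 21204 and 41892 CPM in male Myf5High and to 28647 and 22359 CPM in male Myf5Low. The part of these measures in the pool difference was not tested.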

How the data were processed

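Counts of reads per Ensembl mouse gene were deposited by the authors without normalisation. HTSeq 2.16.2 and GRCm38 are named in the submitters' processing notes, although 2.16.2 may not be a version number of HTSeq. The aligner, annotation release and strand setting are not given in the sources used here. Reads assigned to no gene (42.0% to 45.3% per library) were left out. A single transcript, Gm42418, took 20.1% to 28.8% of gene counts. Of 27554 genes, 27441 matched GENCODE M21, which gave symbols, coordinates and exon lengths on GRCm38. The replicates of a group came from separate pools of mice, per the labels.

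Genes were kept by filterByExpr (minimum count 10, minimum total 15). A model with 1 mean for each group was fitted to the 8 libraries together in edgeR 4.0.16 (TMM, glmQLFit, glmQLFTest, two-sided, R 4.3.3), and p-values were adjusted by Benjamini-Hochberg over 11730 genes at a threshold of 0.05. Standard errors were derived from the F statistic of each log2 fold change. Differences within pools and 2-fold counts between pools used log2(CPM + 0.5). Where values under 3 counts were set to that limit, no 0.5 CPM was added. Intervals and the limit of 3 counts cover counting error only, as PCR copies could not be told from separate molecules. The procedure was tested on simulated data. The simulated libraries were drawn independently, so effects shared by the fractions of a pool were not checked.

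Same-numbered libraries of 1 sex were taken to share mice from their pool labels, which do not say so outright. Deviations from the group means of such libraries had correlations of 0.0275 in females and 0.000373 in males.

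The members and lists were chosen with earlier results of these data known. Full statistics are given for each member called and for the 3 largest log2 fold changes in each direction per comparison. Other members were chosen by their p or after their values were seen. The alternatives were RLE scaling, no or a stricter filter (mean of 50 counts), DESeq2 1.42.0, no Gm42418, an additive model, the compared libraries alone, fractions summed per pool, the pool as a replicate block, each library left out and, chosen after seeing the data, both libraries of male pool 1 left out and, between pools, values under 3 counts set to 3 counts.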

Additional observations from a re-analysis of the deposited data

Results flagged for a closer look

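A library stood apart from the other 3 of its fraction in 5 of 82 checked pairs of a gene and a fraction. The rule would flag about 1 in 20 by chance if the values of a fraction came from the same normal distribution, which was not checked. The share was near that rate, and no share over all genes is given. In Myf5High this was Ccnb2 in male pool 1, at 6.72 CPM beside 0 to 0.509 CPM in the others, all below the limit of 3 counts. In Myf5Low it was Cdk2 in female pool 2 (36.5 CPM beside 16.5 to 19.0), Mcm2 in female pool 2 (21.2 beside 2.24 to 4.78), Mcm7 in male pool 2 (28.2 beside 49.5 to 53.9) and Ube2c in male pool 1 (46.6 beside 3.34 to 6.32). Without female Myf5Low pool 2 the log2 fold change of Cdk2 between the sexes was 1.01, beside 1.29 with it.

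For 5 of 41 genes both female pools and both male pools had fraction differences of opposite direction, as had 10.9% of all genes. Myf5High was higher in females and lower in males for Ccnd1 (interaction 1.38 on the log2 scale), the licensing factor Cdt1 (1.21) and Pcna (1.20). It was lower in females and higher in males for Rb1 (-1.35) and Tyms (-2.30). By edgeR's interaction test with Benjamini-Hochberg adjustment over all genes none passed, with an adjusted p of 0.917 for Ccnd1 and 1.0 for the other 4. In the case of Cdt1 the female differences were close to 0, at 0.05 and 0.11 (log2), and for Pcna female pool 2 and male pool 2 were at 0.14 and -0.13.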

How the results depend on the processing

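Counts of called members, lowest to highest over fits without 1 library, were 0 to 2 for Myf5High against Myf5Low (Cenpe without male Myf5High pool 1, Ccnd2 and E2f1 without male Myf5High pool 2, Mki67 without male Myf5Low pool 2), 0 to 0 in females, 0 to 1 in males, 0 to 1 between the sexes and 0 to 0 for the interaction. Without a filter on low counts there were 2 over both sexes (Mki67 and Top2a) and 2 in males (Ccnd2 and Mki67). Between the sexes the additive model and the summed pools gave 0. With the pool as a replicate block 0 members were called in each comparison of the fractions, and no call of a member changed; the block could not be fitted between the sexes, whose pools differ. Over all genes the counts were 141 over both sexes, 39 in females, 20 in males, 194 between the sexes and 0 for the interaction. They became 291, 167, 111, 477 and 14 without the filter and 234, 111, 80, 371 and 2 with DESeq2. Fits of the compared libraries alone gave 120 in females and 7 in males, and without both libraries of male pool 1 they were 86 and 9. Without 1 library the ranges were 67 to 205, 8 to 101, 7 to 55, 69 to 501 and 0 to 1. Signs of single log2 fold changes turned as follows, and the cause was not tested. Without both libraries of male pool 1, over both sexes, Rrm2 was 0.39, Ccnb1 -0.11 and Cenpa -0.072, in males Ccnb1 was -0.49 and Ccnb2 -3.01, and between the sexes Ccnb2 was 3.71, Ccna2 0.077 and Ube2c 2.66. In males Ccnb2 was -0.028 with the replicate block. Over the fits without 1 library the log2 fold changes ranged, over both sexes, from -2.82 to 0.72 for Rrm2, -0.82 to 1.23 for Ccnb1 and -1.18 to 1.55 for Cenpa. In males they ranged from -2.90 to 0.31 for Mki67, -1.94 to 2.18 for Ccnb1 and -6.26 to 3.66 for Ccnb2. Between the sexes they ranged from -2.85 to 2.13 for Ccnb2 and -1.86 to 1.24 for Ube2c, and in the interaction from -7.76 to 2.18 for Ccnb2 and -0.98 to 6.48 for Ube2c. For the genes just named the changes of sign came without a library of male pool 1 or, for Ccnb2 in males, also without male Myf5Low pool 2 (-0.45). Over all 41 members, the number whose sign changed without 1 library was 1 to 12 over both sexes, 5 to 10 in females without 1 female library, 4 to 19 in males without 1 male library, 1 to 17 between the sexes and 3 to 16 in the interaction. For the genes whose ranges were just given, some fits leave fewer than 3 counts in a group. In male Myf5High without pool 1 these are Rrm2, Ccnb1, Ccnb2, Cenpa and Ube2c. In male Myf5Low without pool 1 they are Rrm2 and Ccnb2. In female Myf5High they are Rrm2 and Ccnb2, without pool 1 or without pool 2. The fitted values there are no measure of size, and their signs rest on a few reads. The median of the members in the interaction was 0.25, and over the fits without 1 library it ranged from -0.72 (male Myf5Low pool 1) to 0.99 (male Myf5High pool 1). It was -0.095 without female Myf5High pool 2, 0.063 without male Myf5High pool 2, 0.50 without female Myf5High pool 1, and 0.77 and 0.76 without the Myf5Low libraries of female pool 2 and male pool 2. RLE scaling, the stricter filter and leaving out Gm42418 changed no count of called members. A low mean limits Rrm2, Ccnb1, Ccnb2, Bub1, Gmnn and Cenpa most, where a few reads set the estimate.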
